A study of Homo sapiens with 12 samples.

Results

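A375 cells, a human melanoma line with a mutant BRAF gene, were given GSK343 and XL413 together, each at 1 µM, and the RNA of 3 such libraries was compared with that of 3 libraries from cells given the solvent DMSO. These 6 libraries, chosen by the treatment in the labels, are part of 12 in all, and the other libraries are 3 of cells with 1 µM XL413 alone and 3 with 1 µM GSK343 alone. Every group was treated for 24 h in the same serum-containing medium, and no other agent or genetic change is named for any of them. The labels call the libraries replicates and do not say whether they came from separate cultures, so that the p-values below measure the spread between these libraries, which may be technical. The results hold for 1 cell line, 1 dose of each compound and 1 time.

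XL413 is an inhibitor of CDC7, a kinase that acts with its partner DBF4 on the MCM helicase so that licensed replication origins fire. GSK343 is an inhibitor of EZH2, the methyltransferase subunit of Polycomb repressive complex PRC2, which with EED and SUZ12 marks histone H3 at silenced developmental genes. In melanoma, EZH2 is often abundant and is known for silencing genes of differentiation and growth control. RNA counts measure neither the kinase nor the methyltransferase, and in bulk RNA fewer cells of a kind cannot be told apart from less RNA per cell.

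Each library held 31553205 to 39079931 expected counts (estimated reads per gene), and 15443 of 26475 genes passed the filter on low counts and were tested. The second combination library stood apart from the others. Against the DMSO mean, the median level of its genes went from 0.28 on the log2 scale in the 10% of genes with the shortest transcripts (median 1079.5 nt) to −0.34 in the 10% with the longest (9612 nt). In the other combination libraries the same medians went from 0.07 to −0.04 and from 0.04 to −0.02. Results are therefore given with all 12 libraries and without combination replicate 2. Where a sentence gives 1 log2 fold change of the combination against DMSO with no such mention, it is that of all 12 libraries, and its gene was called in the same direction in both fits unless said otherwise.

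**Figure D1:**
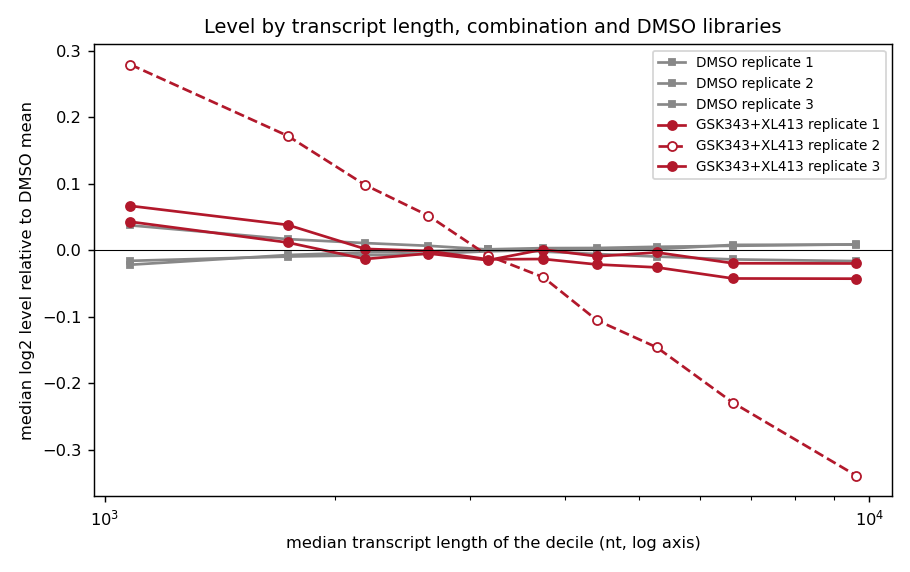
Median log2 level relative to the DMSO mean (vertical axis) in 10 equal groups of genes by transcript length (horizontal axis, nt, log scale), for the 3 DMSO libraries (grey squares) and the 3 combination libraries (red circles, replicate 2 open and dashed). Combination replicate 2 falls from 0.28 to −0.34 from short to long transcripts, and the other libraries stay between −0.04 and 0.07.

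The cells were checked against markers of their lineage. SOX10, a transcription factor of melanocytes, was at 301 to 359 CPM (counts scaled to a common library size) over the 6 libraries, and MITF, the master regulator of pigment genes, at 39.7 to 44.7. The pigment genes themselves were absent or close to it: TYR was at 0 in every library, and MLANA, DCT and PMEL did not exceed 0.151, 0.143 and 1.11 CPM. AXL, EGFR and NGFR, which are used as markers of less differentiated melanoma states, were all present.

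With all 12 libraries, edgeR's quasi-likelihood test called 2152 genes between the combination and DMSO at an adjusted p under 0.05, which is 13.9% of the genes tested. Of these 1033 were higher (6.69%) and 1119 lower (7.25%) in the combination. Without combination replicate 2 the same test called 2364 genes (15.3%), 957 higher (6.2%) and 1407 lower (9.11%). The counts of the gene lists below are to be read against these shares. In both fits 1734 genes (11.2%) were called in the same direction, 728 higher and 1006 lower, and 0 were called in opposite directions, while 418 were called only with this library and 630 only without it. In 5200 genes (33.7%) all 3 combination libraries lay beyond all 3 DMSO libraries, in 2513 above and in 2687 below them. The changes were small. Called genes were at a median of 1.24-fold when higher and 0.845-fold when lower, and 48 of the 2152 differed at least 2-fold, 41 higher and 7 lower.

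The balance of rises and falls depended on the scaling: upper quartile scaling in place of TMM gave 1367 higher and 778 lower. Called genes also differed in length, with a median transcript of 2252.5 nt for those higher and 4260 nt for those lower, against 3313 nt over all tested genes. Without combination replicate 2 the medians were 2880 and 3828 nt. Correcting the counts for GC content and transcript length gave 2868 calls (18.6%), 1169 higher and 1699 lower. Leaving out DMSO replicate 1, 2 or 3 left 1125, 834 and 1068 calls, so that a list's count is to be read against a lower background there.

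Of the compounds' targets, EZH2 (chromosome 7, 148807383 to 148884321 of GRCh38) was at 94.2, 101 and 95.4 CPM with DMSO and 88.1, 88.4 and 85.7 with the combination, in the order of the replicate numbers. All 3 combination libraries lay below the DMSO libraries, and EZH2 fell by 0.15 ± 0.041 on the log2 scale (SE, adjusted p = 0.0329), and by 0.16 without combination replicate 2 (adjusted p = 0.0158). That call was lost without DMSO replicate 1, 2 or 3 or combination replicate 1 or 3 (adjusted p up to 0.146), and with upper quartile scaling (adjusted p = 0.0966). CDC7 was at 24.7, 22.9 and 22.8 CPM with DMSO and 25, 23.6 and 25.4 with the combination, and the 2 groups overlapped (log2 fold change 0.07, adjusted p = 0.414). DBF4 was not called either, at 0.13 (adjusted p = 0.0674), although its combination libraries lay above those of DMSO. DBF4B, a second activating partner of CDC7, fell by 0.28 ± 0.076 (0.20 without combination replicate 2), and was no longer called without DMSO replicate 1, 2 or 3 (adjusted p up to 0.0925). The other PRC2 genes EED, SUZ12 and EZH1 were at −0.05, −0.04 and −0.15, none called. In the whole list of 13 compound targets and partners 0 rose, 2 fell and 11 were not called, with and without combination replicate 2, and 3 fell with the GC and length correction, or 5 without that library too. Over all genes 13.9% were called with all libraries, 7.25% lower, and 15.3% without combination replicate 2, 9.11% lower.

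**Figure D2:**
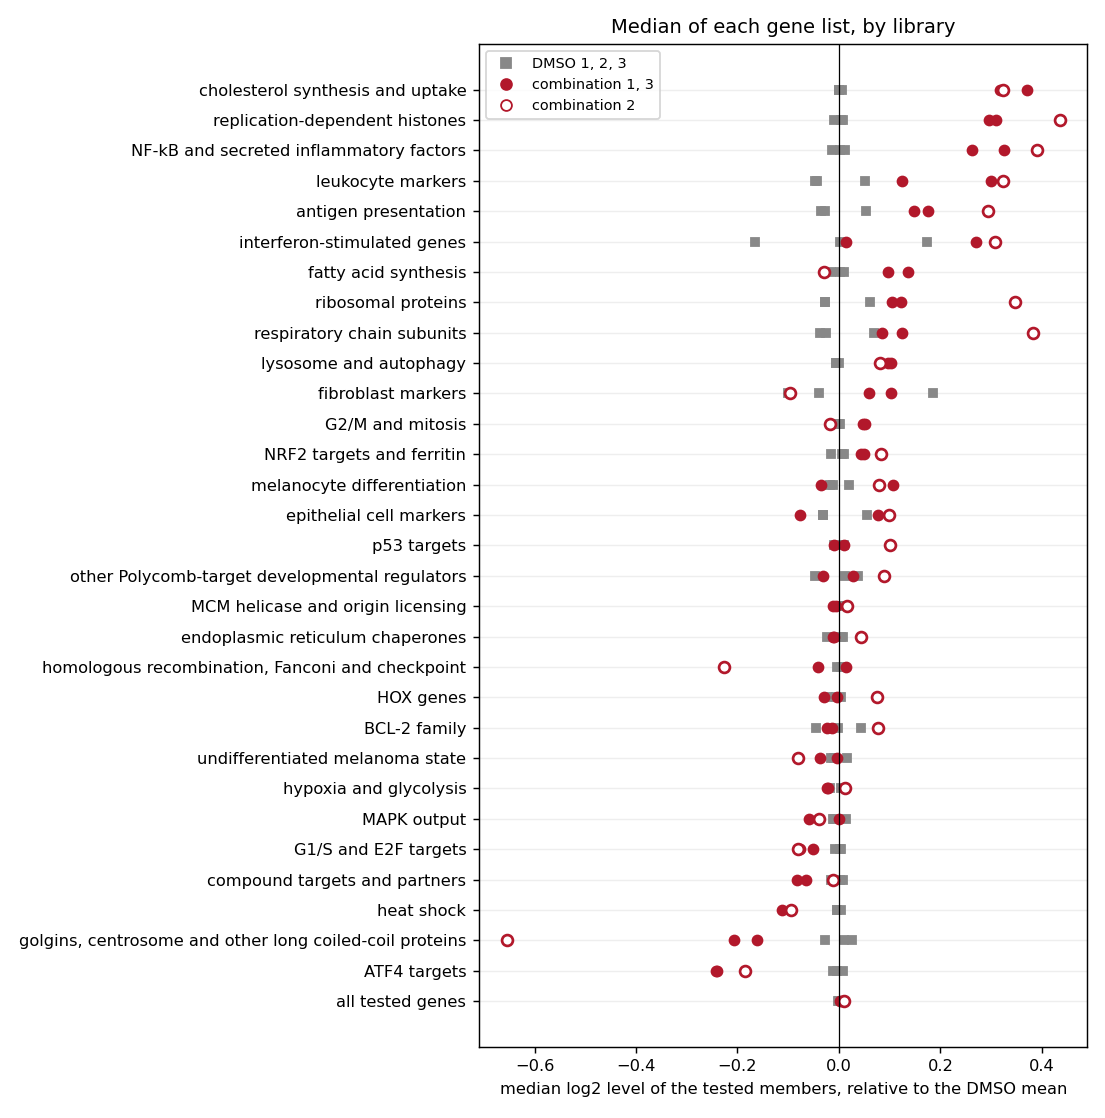
Median log2 level of the tested members of each gene list relative to the DMSO mean (horizontal axis), by library: grey squares for DMSO, filled red circles for combination replicates 1 and 3, open circles for combination replicate 2. The medians of the cholesterol list lie at 0.32, 0.32 and 0.37 in the combination libraries, those of the ATF4 list at −0.24, −0.19 and −0.24, and those of all tested genes near 0.

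Most tested genes of cholesterol synthesis rose. Cells make cholesterol from acetyl-CoA through mevalonate and squalene, and the genes of this path are switched on together by SREBF2 when sterols in the endoplasmic reticulum are low. Of 24 tested genes of synthesis and uptake, 17 rose, 0 fell and 7 were not called, against 6.69% higher over all genes, and 18 rose without combination replicate 2, with 17 in both. The list's median log2 fold change was 0.33, 0.34 without that library and 0.31 with the length correction, where the median of all tested genes was 0.01. In 22 of the 24 genes every combination library was above every DMSO library, and in 0 below, where 33.7% of all genes were separated one way or the other. Counts of rises were 16 to 19 when any 1 of the 6 libraries was left out.

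HMGCS1, which makes the mevalonate precursor HMG-CoA (chromosome 5, 43289395 to 43313512), was at 41.9, 40.3 and 43.1 CPM with DMSO and 68.1, 67.1 and 71.2 with the combination. The lowest combination library, replicate 2, was still well above the highest DMSO library. HMGCS1 rose by 0.72 ± 0.044 (adjusted p = 6.19e-06), and by 0.74 without combination replicate 2. INSIG1, an endoplasmic reticulum protein that retains the SREBF factors when sterols are plentiful (chromosome 7, 155297776 to 155310235), went from 14.7, 15 and 15.3 to 22.7, 25.1 and 22.7 CPM. MSMO1, a sterol demethylating oxidase (chromosome 4, 165327623 to 165343160), went from 12.9, 14.3 and 13.6 to 20, 22.6 and 21.1 CPM. Neither gene's groups overlapped, and the rises were 0.65 ± 0.068 and 0.64 ± 0.066 (0.59 and 0.59 without combination replicate 2).

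Other members are given in the order of the pathway. The early enzymes MVK, MVD and IDI1, which lead from mevalonate to isoprenoid units, rose by 0.36, 0.40 and 0.49, and FDPS, which joins these units, was not called at 0.13. FDFT1 and SQLE, which make squalene and its epoxide, rose by 0.53 and 0.34, and LSS and CYP51A1, which act next, were not called (0.11 and 0.11). Late enzymes that rose were NSDHL (0.32), HSD17B7 (0.48), SC5D (0.33) and DHCR7 (0.29). Of the regulators, SREBF2 itself rose by 0.30 (0.39 without combination replicate 2), and STARD4, a sterol carrier, by 0.72.

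Rises of cholesterol genes stood beside GSK343 rather than XL413 in the single-compound groups, all of which share the DMSO libraries with this comparison. The list's median was 0.31 for GSK343 alone and −0.03 for XL413 alone. HMGCS1 averaged 66.7 ± 1.7 CPM (SD, n = 3) with GSK343, 40.2 ± 1.2 with XL413 and 68.8 ± 2.13 with both. The combination was higher than XL413 alone by 0.78 ± 0.044 (adjusted p = 2.51e-06), and its difference from GSK343 alone was 0.04 ± 0.043 and not called (adjusted p = 0.579). The 9 bases TCACNCCAC, a simple form of the sterol response element, were searched on both strands in the 250 bases before each RefSeq start. Of the 18 tested members with such a sequence 1 held them, SREBF2, where 1.09% of all genes did.

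Among 14 fatty acid genes 2 rose and 2 fell with all libraries, and 5 and 3 with the GC and length correction. Without combination replicate 2, 7 rose and 2 fell. The list medians were 0.03 with all libraries and 0.12 without that library. Over all genes 6.69% rose and 7.25% fell, or 6.2% and 9.11% without that library. SREBF1, the factor that drives fatty acid synthesis (chromosome 17, 17810399 to 17837002), was at 93.1, 98.4 and 96.4 CPM with DMSO and 70.7, 75.9 and 68.2 with the combination. It fell by 0.42 ± 0.048 (adjusted p = 0.000364; 0.47 without combination replicate 2), with no overlap. ACSS2, which makes acetyl-CoA from acetate, rose by 0.37 ± 0.052, and ME1, a source of NADPH, rose by 0.27 ± 0.05. FASN, the fatty acid synthase, went from 578, 585 and 571 to 508, 399 and 496 CPM and fell by 0.30 ± 0.079, or 0.21 without combination replicate 2. Its call was lost without DMSO replicate 1, 2 or 3 (adjusted p up to 0.08).

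Genes of secreted inflammatory factors gave 14 rises and 0 falls, against 6.69% higher and 7.25% lower over all genes. NF-kB is the transcription factor family that switches on many cytokines, chemokines and matrix-degrading enzymes, and melanoma lines often secrete such factors. These were counted over 25 tested genes, of which 11 were not called, and 13 rose without combination replicate 2 (13 in both). List medians were 0.29 and 0.29, and by library 0.01, 0.00 and −0.01 with DMSO and 0.26, 0.39 and 0.33 with the combination. Without DMSO replicate 2 the count was 9.

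MMP3, a secreted metalloproteinase that cuts extracellular matrix (chromosome 11, 102835801 to 102843803), was at 8.57, 9.07 and 6.96 CPM with DMSO and 18.9, 17.8 and 17.8 with the combination. Every combination library was well above every DMSO library. MMP3 rose by 1.15 ± 0.088 (adjusted p = 3.08e-05; 1.16 without combination replicate 2). MMP1, the collagenase gene beside it on chromosome 11 (102789920 to 102798160), went from 12.3, 11.8 and 13.1 to 22.2, 22.2 and 23 CPM, a tight group in each case, and rose by 0.86 ± 0.066 (adjusted p = 3.08e-05; 0.86 without combination replicate 2).

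CCL2, a chemokine that attracts monocytes (chromosome 17, 34255218 to 34257203), went from 10.7, 9.9 and 8.91 to 17.1, 20.6 and 17.4 CPM, with combination replicate 2 the highest. It rose by 0.91 ± 0.086 (adjusted p = 0.000118) and by 0.81 without that library. PTGES, the prostaglandin E synthase (chromosome 9, 129738331 to 129753047), went from 7.3, 8.59 and 7.26 to 14.3, 13.6 and 14.4 CPM and rose by 0.86 ± 0.077 (0.89 without combination replicate 2). The neutrophil chemokines CXCL8 and CXCL1 rose by 0.51 and 0.43, and the interleukins IL1A, IL24 and IL11 by 0.53, 0.45 and 0.35. IL1B rose by 0.56 with all libraries and was not called without combination replicate 2 (0.48, adjusted p = 0.0805). Feedback targets NFKBIA and TNFAIP3, which restrain NF-kB, rose by 0.24 and 0.20, and the subunits NFKB1, NFKB2 and RELB were not called (−0.08, 0.06 and 0.06). Calls were lost for IL1B without DMSO replicate 2 or 3 or combination replicate 2 (adjusted p up to 0.137), NFKBIA without DMSO replicate 1 or 2 (adjusted p up to 0.0845) and TNFAIP3 without DMSO replicate 1, 2 or 3 or combination replicate 1 or 3 (adjusted p up to 0.137).

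Against the single compounds these genes did not behave alike. MMP1 averaged 12.4 ± 0.631 CPM with DMSO, 16.3 ± 0.622 with XL413, 15.9 ± 1.23 with GSK343 and 22.5 ± 0.499 with both. It was higher in the combination than with GSK343 alone by 0.50 ± 0.064 (adjusted p = 0.00333) and than with XL413 alone by 0.47 ± 0.064 (adjusted p = 0.00329). PTGES and MMP3 differed from XL413 alone (adjusted p = 0.000438 and 0.000352) and were not called against GSK343 alone (0.944 and 0.113). CCL2 differed from GSK343 alone (adjusted p = 0.00404) and was not called against XL413 alone (0.221).

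**Figure D3:**
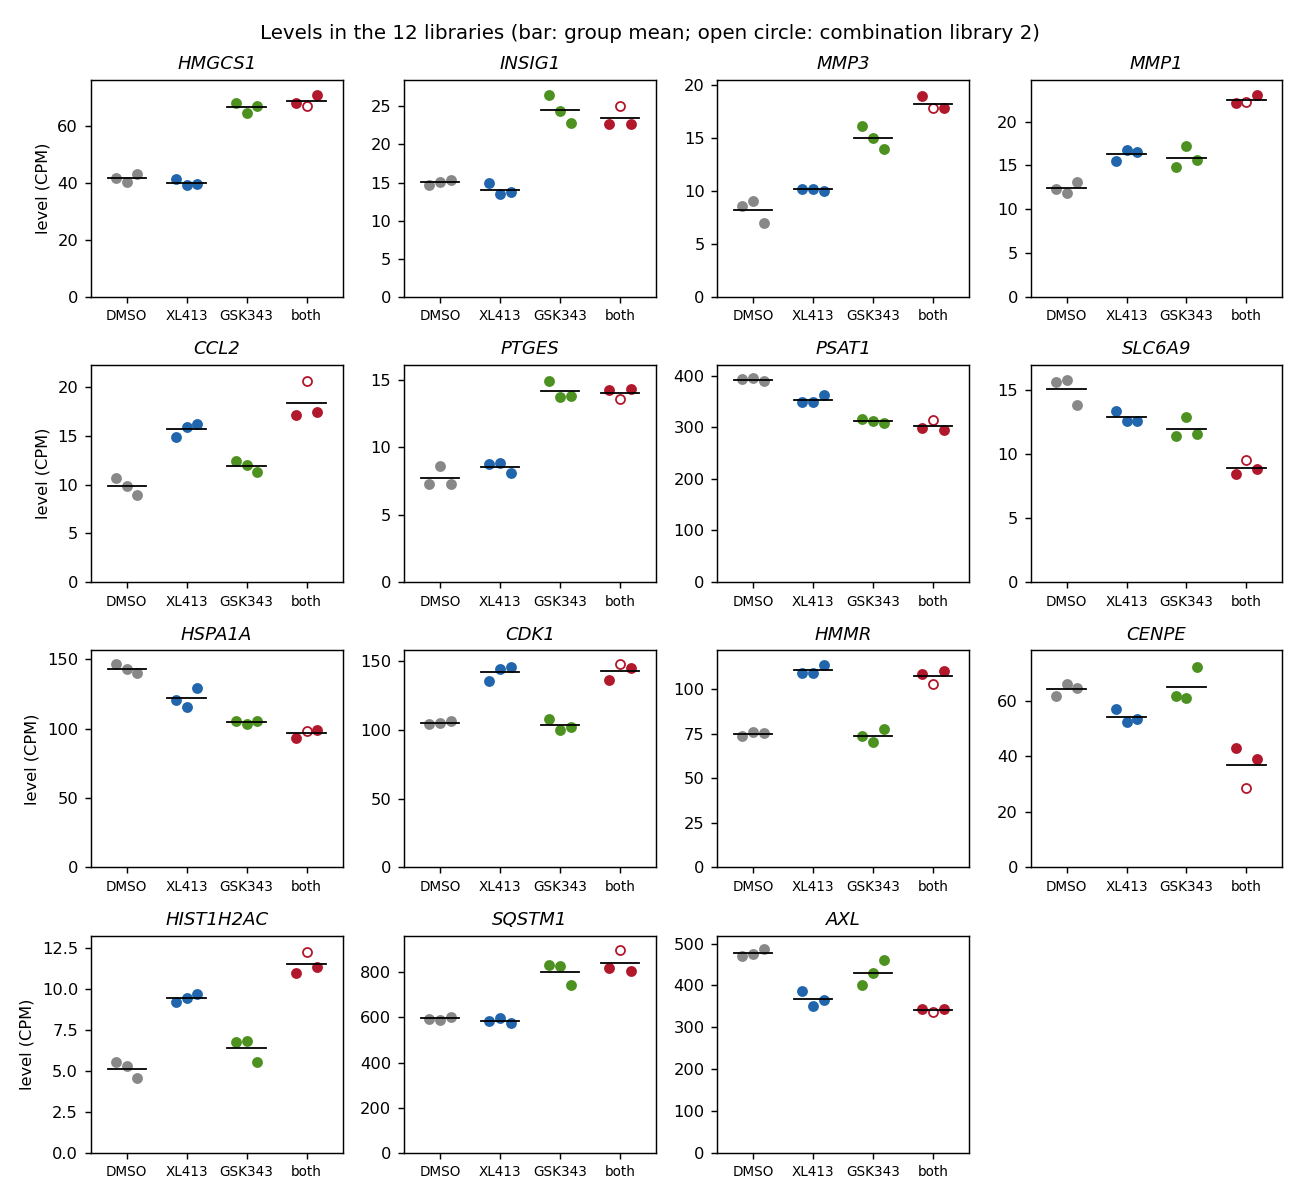
Level in CPM (vertical axes, from 0) of 15 genes in the 3 libraries of each group: DMSO, XL413, GSK343 and both compounds, with bars for group means and an open circle for combination replicate 2. HMGCS1 and PTGES stand at like levels with GSK343 and with both, CDK1 and HMMR with XL413 and with both, and MMP1 and SLC6A9 lie beyond either single compound.

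Most tested targets of ATF4 fell. ATF4 is the transcription factor of the integrated stress response and drives synthesis and import of amino acids. Of 22 genes, 14 fell, 1 rose and 7 were not called, against 7.25% lower over all genes. Without combination replicate 2, 15 fell and 1 rose, with 13 falls in both fits. The list's median was −0.24 and −0.25 without it, and the medians by library were 0.01, −0.00 and −0.01 with DMSO and −0.24, −0.19 and −0.24 with the combination. The groups did not overlap in 18 genes lower in the combination and 2 higher, where 33.7% of all genes were separated one way or the other. Leaving out DMSO replicate 1 or 2 left 8 or 9 falls.

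PSAT1, the aminotransferase of the serine pathway (chromosome 9, 78297143 to 78330093), was at 393, 395 and 389 CPM with DMSO and 298, 314 and 294 with the combination. The groups were separated by much more than the spread within either. PSAT1 fell by 0.38 ± 0.035 (adjusted p = 8.85e-05; 0.41 without combination replicate 2). PHGDH and SHMT2, which act before and after it on the way to serine and glycine, fell by 0.25 and 0.26 without combination replicate 2 (−0.20 and −0.23 with it). ASNS, the asparagine synthetase (chromosome 7, 97852118 to 97872542), went from 155, 149 and 152 to 118, 128 and 116 CPM and fell by 0.34 ± 0.041 (0.38 without combination replicate 2). SLC7A5, the large neutral amino acid transporter (chromosome 16, 87830023 to 87869488), went from 1098, 1124 and 1146 to 871, 748 and 849.9 CPM and fell by 0.45 ± 0.056 (0.39). ATF4 mRNA itself fell by 0.19, and the stress-induced genes CHAC1 and TRIB3 by 0.49 and 0.20, although the CHAC1 groups overlapped. CEBPB, a transcription factor that also answers inflammatory signals, was the 1 member that rose, by 0.34. Leaving out 1 library ended the call of ATF4 without DMSO replicate 1 or 2 (adjusted p up to 0.0576), TRIB3 without DMSO replicate 1, 2 or 3 or combination replicate 1 or 3 (adjusted p up to 0.0816), CHAC1 without DMSO replicate 1 or 2 or combination replicate 1 or 3 (adjusted p up to 0.161) and CEBPB without DMSO replicate 1 (adjusted p = 0.0649).

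SLC6A9, the glycine transporter GLYT1 (chromosome 1, 43991500 to 44031467), is no member of this list. It was among the 10 largest falls of genes called in both fits with mean log2 CPM of at least 1 and no overlap. It was at 15.7, 15.8 and 13.8 CPM with DMSO and 8.46, 9.54 and 8.85 with the combination, and fell by 0.75 ± 0.077 (adjusted p = 0.000178; 0.80 without combination replicate 2). Its mean was 12.9 ± 0.445 CPM with XL413 and 12 ± 0.825 with GSK343. The combination was lower than both, by 0.52 ± 0.078 and 0.42 ± 0.078 (adjusted p = 0.00628 and 0.0293). For PSAT1 the combination was lower than XL413 alone (adjusted p = 0.00664) and not called against GSK343 alone (0.459). The 8 bases TTNCATCA, a C/EBP-ATF composite site, were found on either strand within 250 bases before the start in ASNS, CHAC1 and ATF3, 3 of the 18 members with a RefSeq promoter, and in 3.89% of all genes. They were present in 2 of the 12 members with such a promoter that were called in both fits.

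Heat shock genes that were called were all lower. Their products are chaperones that HSF1 switches on when proteins misfold. Of 19 genes 9 fell, 0 rose and 10 were not called, against 7.25% lower over all genes, and 10 fell without combination replicate 2. Medians were −0.09 and −0.10. Without DMSO replicate 1, 2 or 3 the falls numbered 5, 5 and 6, and with upper quartile scaling 5. HSPA1A, the inducible chaperone HSP70 (chromosome 6, 31815464 to 31817946), was at 146, 143 and 140.3 CPM with DMSO and 93.5, 98.2 and 98.8 with the combination, and HSPA1B (chromosome 6, 31827735 to 31830255) at 127, 127 and 125 and 84.2, 86.9 and 73.5. In both genes every combination library was below every DMSO library. HSPA1A fell by 0.56 ± 0.045 (adjusted p = 3.08e-05; 0.58 without combination replicate 2) and HSPA1B fell by 0.63 ± 0.061 (adjusted p = 0.000129; 0.68). The 2 genes are nearly identical copies, so the division of reads between them is an estimate. The co-chaperone DNAJB1 (chromosome 19, 14514770 to 14529770) went from 226, 228 and 223 to 190.1, 189 and 191 CPM and fell by 0.25 ± 0.035. The constitutive chaperones HSPA8, HSP90AA1 and HSP90AB1 fell by less, 0.11, 0.10 and 0.09, and HSF1 itself by 0.16. The mitochondrial chaperone genes HSPD1 and HSPE1 were not called (0.01 and 0.16). Calls were lost for HSPA8 without DMSO replicate 1 or 2 (adjusted p up to 0.0561), HSP90AA1 without DMSO replicate 1, 2 or 3 or combination replicate 1 (adjusted p up to 0.0888), HSP90AB1 without DMSO replicate 1, 2 or 3 or combination replicate 3 (adjusted p up to 0.0964) and HSF1 without DMSO replicate 1, 2 or 3 or combination replicate 1 or 3 (adjusted p up to 0.17).

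The promoters of the 3 heat shock genes with the largest called falls are shown because they carry the sequence GAANNTTC, the core of a heat shock element, which reads the same on both strands. The windows are from RefSeq on GRCh38.p14, 5′ to 3′ on the gene's strand, with the motif in capitals, and keep clear of annotated exons of the gene. They lie at chr6:31815377-31815463 (plus strand), chr6:31827573-31827700 (plus) and chr19:14518421-14518534 (minus), the last before the main start of a gene that has a longer transcript too.
HSPA1A: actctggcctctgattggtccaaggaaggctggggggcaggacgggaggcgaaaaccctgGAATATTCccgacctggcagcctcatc
HSPA1B: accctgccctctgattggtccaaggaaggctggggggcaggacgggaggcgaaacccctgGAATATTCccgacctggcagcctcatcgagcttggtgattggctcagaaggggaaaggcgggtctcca
DNAJB1: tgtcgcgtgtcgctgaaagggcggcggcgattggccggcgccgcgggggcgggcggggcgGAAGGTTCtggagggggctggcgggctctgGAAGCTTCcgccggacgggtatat
Over the 87 bases that the first 2 windows share, HSPA1A and HSPA1B differ at 3. Within 250 bases before the start, 10 of 17 heat shock genes with a RefSeq promoter held the motif and 7.05% of all genes did. It was present in 6 of the 8 members with such a promoter that were called in both fits.

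Mitotic genes moved in both directions, where 6.69% of all genes were called higher and 7.25% lower. Genes of G2 and mitosis build the spindle, trigger entry into mitosis and are switched on late in the cell cycle. Among 35 genes 9 rose, 6 fell and 20 were not called with all libraries, and 12 rose and 6 fell without combination replicate 2 (9 rises and 5 falls in both). Without DMSO replicate 2 the counts were 5 and 2, and with the GC and length correction 10 and 10. The list's median, 0.03 and 0.04, does not show this split.

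CDK1, the kinase that starts mitosis (chromosome 10, 60778331 to 60794852), was at 104, 105 and 106 CPM with DMSO and 136, 148 and 145 with the combination. HMMR, a hyaluronan-binding spindle protein (chromosome 5, 163460203 to 163491945), went from 73.6, 75.9 and 75.3 to 109, 103 and 109.9. UBE2C, which hands ubiquitin to the anaphase-promoting complex (chromosome 20, 45812576 to 45816957), went from 147, 140.1 and 140.2 to 193, 226 and 190.2. In these 3 genes all combination libraries lay above all DMSO libraries, and the log2 rises were 0.44 ± 0.046, 0.52 ± 0.045 and 0.51 ± 0.064 (0.41, 0.54 and 0.43 without combination replicate 2). PTTG1, the securin, CENPA, the centromeric histone, and CCNB2, a mitotic cyclin, rose by 0.39, 0.38 and 0.27. CCNB1, AURKA and the survivin gene BIRC5 rose by less, 0.16, 0.11 and 0.18. TOP2A, which untangles chromosomes, was at 0.18 and called only without combination replicate 2 (0.27). Leaving out 1 library ended the call of CENPA without DMSO replicate 1 or 2 (adjusted p up to 0.0701), CCNB1 without DMSO replicate 2 or 3 (adjusted p up to 0.0655), AURKA without DMSO replicate 1, 2 or 3 or combination replicate 1 (adjusted p up to 0.0995) and BIRC5 without DMSO replicate 1, 2 or 3 (adjusted p up to 0.0937).

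The 3 largest falls were those of the longest transcripts. CENPE, a kinetochore motor (chromosome 4, 103105806 to 103198409), was at 61.8, 66 and 64.4 CPM with DMSO and 43.1, 28.7 and 39.1 with the combination, combination replicate 2 being the lowest. It fell by 0.80 ± 0.11 (adjusted p = 0.00124) and by 0.65 without that library (adjusted p = 3.98e-05). MKI67, the gene of the proliferation marker Ki-67, a protein that coats mitotic chromosomes (chromosome 10, 128096659 to 128126385), went from 531, 556 and 555 to 379, 200.5 and 392 CPM. It fell by 0.76 ± 0.17 (adjusted p = 0.0134), and was no longer called without DMSO replicate 2 (adjusted p = 0.0503), and by 0.51 without combination replicate 2 (adjusted p = 1.19e-05). CENPF, a kinetochore protein, was at −0.58 and −0.39, and the kinases and motors PLK1 and KIF11 at −0.19 and −0.24. KIF18A was called lower only with combination replicate 2 (−0.19) and AURKB only without it (−0.16). Calls were lost for CENPF without DMSO replicate 2 (adjusted p = 0.0572) and KIF11 without DMSO replicate 2 or 3 (adjusted p up to 0.0674). Transcripts of CENPE, CENPF and MKI67 measure 8612, 10307 and 12678 nt, the 3 longest of the list, and those of UBE2C, CDK1 and HMMR 914, 1948 and 3102 nt. With the length and GC correction CENPE was at −0.74, MKI67 at −0.64 and UBE2C at 0.35.

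**Figure D4:**
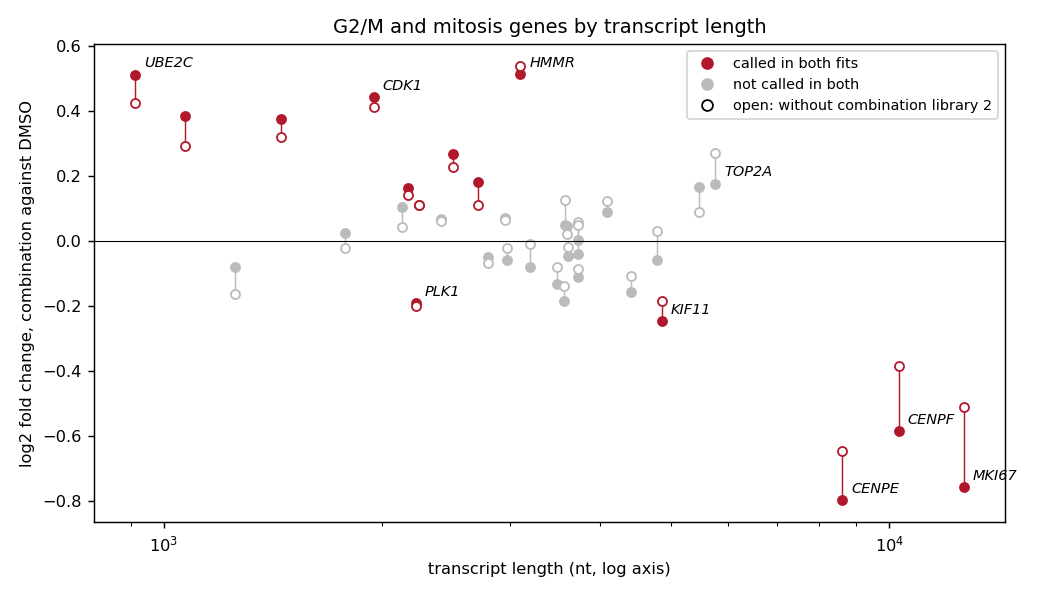
Log2 fold change of the combination against DMSO (vertical axis) by transcript length (horizontal axis, nt, log scale) for 35 genes of G2/M and mitosis. Filled circles give the fit of all 12 libraries, open circles joined to them the fit without combination replicate 2, and red marks genes called in both; CENPE, CENPF and MKI67 lie lowest at the right.

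The window before CDK1 and that before MKI67 are shown because both hold TTTGAA, the letters of the cell cycle genes homology region (CHR) of late cell cycle promoters, while their mRNAs moved in opposite directions. They are from RefSeq on GRCh38.p14 at chr10:60778110-60778235 (plus strand) and chr10:128126424-128126530 (minus strand), 5′ to 3′, with each TTTGAA in capitals.
CDK1: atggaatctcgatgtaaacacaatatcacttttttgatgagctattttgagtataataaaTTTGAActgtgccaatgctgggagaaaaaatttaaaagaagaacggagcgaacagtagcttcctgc
MKI67: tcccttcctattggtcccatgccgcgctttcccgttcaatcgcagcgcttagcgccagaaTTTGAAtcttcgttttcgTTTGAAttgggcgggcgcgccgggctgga
The motif was searched on both strands within 250 bases before the start. It was found in 17 of 29 mitotic genes with a RefSeq promoter, against 16.1% of all genes. Of the 11 of these genes that were called in both fits, 7 held it.

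Beside single compounds, CDK1 averaged 142 ± 5.54 CPM with XL413, 103 ± 4.21 with GSK343 and 143 ± 6.06 with both. The combination was higher than GSK343 alone for CDK1, HMMR and UBE2C (adjusted p = 0.000939, 0.000345 and 0.00186), and not called against XL413 alone (0.934, 0.635 and 0.748). CENPE differed from both. It averaged 54.2 ± 2.32 CPM with XL413 and 65 ± 6.22 with GSK343, and the combination was lower than these by 0.56 ± 0.11 (adjusted p = 0.0404) and 0.82 ± 0.11 (adjusted p = 0.00465). Both differences were also called without combination replicate 2 (adjusted p = 0.00712 and 0.000123).

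Nearly all cells use long coiled-coil proteins as golgins, which tether vesicles, and as scaffolds of the centrosome. The list of such genes, which also holds CENPE and CENPF, was drawn up for its long transcripts (median 8126 nt). By library its median was −0.03, 0.01 and 0.03 with DMSO and −0.21, −0.66 and −0.16 with the combination. Of 30 genes 14 fell, 0 rose and 16 were not called, 16 fell without combination replicate 2 (14 in both) and 22 without combination replicate 3, and the medians were −0.31 with all libraries, −0.18 without replicate 2 and −0.24 with the length correction, under which 20 fell. Combination replicate 2 had by far the lowest library median. The share of all genes called lower was 7.25%, or 9.11% without combination replicate 2. GOLGA4, a tether of the trans-Golgi (chromosome 3, 37243177 to 37366751), went from 125, 124 and 129 to 90.6, 74.3 and 92.4 CPM and fell by 0.56 ± 0.075 (0.47 without combination replicate 2). CEP290, a protein of the ciliary base (chromosome 12, 88049014 to 88142216), went from 34.6, 34.4 and 33.2 to 24.1, 19.2 and 23.8 and fell by 0.61 ± 0.079 (0.51), and AKAP9, a scaffold of the Golgi and centrosome, fell by 0.77 ± 0.14 (0.58). For each of the 3 all combination libraries were below all DMSO libraries. CEP290 was lower in the combination than with GSK343 or XL413 alone (adjusted p = 0.00201 and 0.0265). SMC3, a subunit of the cohesin ring, fell by 0.34 ± 0.051 (0.29).

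Genes of replication, which CDC7 serves, were read against 6.69% higher and 7.25% lower over all genes. Without combination replicate 2 these shares were 6.2% and 9.11%. Among 21 MCM and origin licensing genes 1 rose, 1 fell and 19 were not called, and 1 rose and 3 fell without combination replicate 2, among them CDT1 (−0.18) and GINS1 (−0.21). With the GC and length correction 1 rose and 2 fell, and 1 and 4 without combination replicate 2. The helicase subunit gene MCM3 was at 182, 180.4 and 178 CPM with DMSO and 204, 190.2 and 205 with the combination and rose by 0.15 ± 0.038 (adjusted p = 0.022), and was no longer called without DMSO replicate 1, 2 or 3 or combination replicate 1 or 3 (adjusted p up to 0.0833). CDC6, which loads the helicase, fell by 0.12 ± 0.036, and was no longer called without DMSO replicate 1, 2 or 3 or combination replicate 1 or 3 (adjusted p up to 0.143) or with the correction (adjusted p = 0.074). Of 29 genes that E2F drives at G1/S 0 rose and 4 fell, or 6 without combination replicate 2. Without DMSO replicate 1 or 2 the falls numbered 2, and with the correction 9, or 10 without combination replicate 2, against 1699 of all 15443 genes lower with the correction. UHRF1, which maintains DNA methylation (chromosome 19, 4903080 to 4962154), went from 250.4, 245 and 253 to 206, 189.8 and 201 CPM and fell by 0.33 ± 0.044 (adjusted p = 0.000936; 0.30 without combination replicate 2). RRM2, the small subunit of ribonucleotide reductase (chromosome 2, 10120698 to 10131419), went from 465, 463 and 462 to 388, 413 and 394 CPM and fell by 0.22 ± 0.034 (0.25). In both genes the groups did not overlap. The smaller falls were those of CCNE2, a cyclin of S phase entry (−0.16), and CHAF1A, a histone chaperone (−0.15). Calls were lost for CCNE2 without DMSO replicate 1, 2 or 3 or combination replicate 1 or 3 (adjusted p up to 0.146) and CHAF1A without DMSO replicate 1 or 2 (adjusted p up to 0.0669). The CCNE2 call was also lost with upper quartile scaling (adjusted p = 0.126), DESeq2 (0.0544) and limma-voom (0.0522), among other alternatives.

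Some histone genes of the clustered, replication-dependent kind rose in poly-A RNA. Most of their mRNA ends in a stem-loop without a poly-A tail, so these values cover only the polyadenylated part, and reads of close paralogs are divided by estimate. Of 20 tested genes 6 rose, 0 fell and 14 were not called, and 5 rose without combination replicate 2, with medians of 0.35 and 0.29. The share of all genes called higher was 6.69%, and estimates of the list went down to −0.51. In 9 genes all combination libraries lay above all DMSO libraries, where 33.7% of all genes were separated one way or the other. HIST1H2AC, an H2A gene (chromosome 6, 26124145 to 26139116), had the largest rise of the list. It was at 5.51, 5.3 and 4.55 CPM with DMSO and 10.9, 12.2 and 11.3 with the combination, a rise of 1.17 ± 0.097 (adjusted p = 3.76e-05; 1.12 without combination replicate 2). The H2B genes HIST1H2BD and HIST1H2BK rose by 1.00 and 0.90 (0.97 and 0.79), and HIST3H2A by 0.61 (0.48). HIST1H1C, a linker histone gene, rose by 0.38 (0.31), and HIST1H2BJ was called only with combination replicate 2 (0.89, and 0.71 without it). Leaving out 1 library ended the call of HIST1H1C without DMSO replicate 3 (adjusted p = 0.0629) and HIST1H2BJ without DMSO replicate 1, 2 or 3 or combination replicate 2 (adjusted p up to 0.148). HIST1H2AC averaged 9.44 ± 0.26 CPM with XL413 and 6.38 ± 0.714 with GSK343, and the combination was higher than GSK343 alone (adjusted p = 0.00186) and not called against XL413 alone (0.185).

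Of 26 autophagy and lysosome genes 9 rose, 1 fell and 16 were not called, or 11 and 1 without combination replicate 2, with medians of 0.08 and 0.10. The rises numbered 4 without DMSO replicate 2. With all libraries 6.69% of all genes rose and 7.25% fell. SQSTM1, the autophagy receptor p62 (chromosome 5, 179806398 to 179838078), was at 595, 589 and 602 CPM with DMSO and 819, 899.6 and 807 with the combination and rose by 0.50 ± 0.049 (adjusted p = 0.000141; 0.45 without combination replicate 2). WIPI1, which acts in autophagosome formation, rose by 0.47 ± 0.083, and the lysosomal hydrolase genes CTSZ and HEXA rose by 0.33 and 0.23. TFE3, a transcription factor that drives lysosome genes, was the 1 that fell, by 0.23. Calls were lost for CTSZ without DMSO replicate 2 (adjusted p = 0.0544). The E-box CACGTG, which reads the same on both strands, was found before the start of 6 of 18 members with a RefSeq promoter and of 7.73% of all genes. It was present in 1 of the 7 members with such a promoter that were called in both fits. SQSTM1 was higher than with XL413 alone (adjusted p = 0.000219) and was not called against GSK343 alone (0.421).

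GPNMB, a melanosomal glycoprotein (chromosome 7, 23235967 to 23275108), was the 1 called gene of 12 tested in the melanocyte list. It went from 46.3, 48.5 and 46.5 to 70.5, 65.8 and 73 CPM and rose by 0.57 ± 0.044 (adjusted p = 3.08e-05; 0.60 without combination replicate 2, where PAX3, a factor of the melanocyte lineage, also fell, by 0.27). AXL, the receptor of the GAS6 ligand (chromosome 19, 41219203 to 41261766), went from 471, 476 and 486 to 344, 338 and 344 CPM. Each combination library was well below each DMSO library, and AXL fell by 0.48 ± 0.049 (adjusted p = 0.000178; 0.48 without combination replicate 2). AXL is in a second list, drawn up for the undifferentiated melanoma state. Of its 22 genes 2 rose and 5 fell, or 1 and 4 without combination replicate 2. Over all genes 6.69% rose and 7.25% fell with all libraries. SOX9 and CDH2, a neural crest factor and N-cadherin, were at −0.36 and −0.15, the latter called only with combination replicate 2, as was TWIST1 (0.30). Leaving out 1 library ended the call of SOX9 without DMSO replicate 2 or 3 (adjusted p up to 0.115), TWIST1 without DMSO replicate 1, 2 or 3 or combination replicate 1 or 2 (adjusted p up to 0.144) and CDH2 without DMSO replicate 1, 2 or 3 or combination replicate 2 (adjusted p up to 0.118). TGFBI, a matrix protein induced by TGF-beta, rose by 0.40 ± 0.042, and AMOTL2, a YAP-binding scaffold, fell by 0.33 ± 0.053. AXL was lower than with GSK343 alone (adjusted p = 0.00732) and not called against XL413 alone (0.346). EGFR differed within the combination group. It was at 44.6, 45.3 and 42.5 CPM with DMSO and at 47.3, 21 and 49.8 with the combination, with the second library far below the other 5.

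In the list of MAPK output, the pathway that mutant BRAF drives, 2 of 18 genes rose and 3 fell in each fit. Over all genes 6.69% rose and 7.25% fell with all libraries. CCND1, the cyclin of G1, fell by 0.22 ± 0.042 (0.17 without combination replicate 2). The transcription factor genes ETV4 and FOSL1 were at −0.16 and −0.17, and DUSP6, a phosphatase of ERK, was at 0.12, all called in both fits. IER3, an early response gene, was called only with combination replicate 2 (0.20) and EPHA4, an ephrin receptor, only without it (0.26). Calls were lost for ETV4 without DMSO replicate 2 or 3 or combination replicate 1 or 3 (adjusted p up to 0.109), FOSL1 without DMSO replicate 2 or 3 (adjusted p up to 0.0985), DUSP6 without DMSO replicate 1, 2 or 3 or combination replicate 1 (adjusted p up to 0.139) and IER3 without DMSO replicate 1, 2 or 3 or combination replicate 2 (adjusted p up to 0.136).

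Antigen presentation and interferon-stimulated genes had more rises than falls, where 6.69% of all genes rose and 7.25% fell. In the former, genes for peptide display on MHC molecules, 8 of 21 rose and 0 fell, and 6 without combination replicate 2 (5 in both). Without DMSO replicate 2 or 3, 4 and 5 rose. HLA-DRA, a chain of MHC class II (chromosome 6, 32439842 to 32445046), was at 185, 185 and 177 CPM with DMSO and 224, 246 and 233 with the combination and rose by 0.36 ± 0.051 (adjusted p = 0.00125; 0.32 without combination replicate 2). HLA-DPA1 and HLA-DMA rose by 0.29 and 0.35, and B2M, the light chain of class I, by 0.35 (0.27). HLA-B, a class I heavy chain, was at 0.37 (0.26). HLA-C, HLA-E and PSMB8 were called only with combination replicate 2 (0.22, 0.16 and 0.18, and 0.16, 0.11 and 0.12 without it). The calls of these 3 and of HLA-B were also lost without DMSO replicate 2 (adjusted p up to 0.167 over the libraries left out).

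Of 35 interferon-stimulated genes 5 rose and 0 fell, or 7 without combination replicate 2, 3 without DMSO replicate 2 and 2 without DMSO replicate 3. Over all genes 6.69% rose, or 6.2% without combination replicate 2. The list's library medians, 0.17, 0.00 and −0.16 with DMSO and 0.01, 0.31 and 0.27 with the combination, spread widely within both groups and overlapped. HERC5, an ISG15 ligase, went from 6.3, 5.28 and 4.85 to 7.69, 8.17 and 8.22 CPM and rose by 0.55 ± 0.11 (adjusted p = 0.00785; 0.54 without combination replicate 2). ISG20, an exonuclease, and GBP1, a guanylate-binding protein, rose by 0.35 and 0.34, the latter lost without DMSO replicate 1, 2 or 3 or combination replicate 1 (adjusted p up to 0.0687). OAS1, a sensor of double-stranded RNA, went from 7.21, 5.48 and 5.81 to 7.87, 9.7 and 8.6 CPM and rose by 0.50 ± 0.13, and was no longer called without DMSO replicate 2 or 3 (adjusted p up to 0.0916). IFI44 was at 0.26 and lost its call without DMSO replicate 3 (adjusted p = 0.0924), and HERC6 and PARP9 were called only without combination replicate 2 (0.34 and 0.23).

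Markers of other cells were read beside these genes. Of 6 tested leukocyte markers 2 rose and 4 were not called, where 6.69% of all genes rose and 7.25% fell. Estimates were above 0 in 4 of the 6 and went down to −0.78. The rises were LAPTM5 (0.91 ± 0.18, from 1.57, 1.42 and 2.2 to 3.78, 2.96 and 3.07 CPM) and LYZ (0.39 ± 0.086). The LYZ call was lost with the GC and length correction (adjusted p = 0.0616, and 0.095 without combination replicate 2). The summed level of the 13 listed markers was 50.6 to 54.4 CPM with DMSO and 57.3 to 61.0 with the combination. The defining leukocyte genes PTPRC and CD3E were at 0 to 0.057 CPM in all 6 libraries. The monocyte gene CD14 was lower with the combination, at 0.848, 0.296 and 0.331 CPM with DMSO and 0.279, 0.285 and 0.287 with both compounds. Of 8 epithelial markers tested 0 were called, and of 10 fibroblast markers 1 rose, the proteoglycan gene LUM (0.30), a call that was lost when any 1 of the 6 libraries was left out (adjusted p up to 0.134). Without that library 2 epithelial markers fell, KRT14 (−0.29) and KRT18. Their summed levels overlapped between the groups, at 679.7 to 712.82 and 630.35 to 702.52 CPM for epithelial and 223.69 to 282.36 and 225.79 to 240.94 for fibroblast markers. The log2 fold change of KRT18, a keratin, went from −0.10 with all libraries to −0.14 (adjusted p = 0.01).

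Ribosomal proteins and subunits of the respiratory chain have short mRNAs (medians 1170 and 1090 nt), and their counts turned on single libraries. Over all genes 6.69% rose, or 6.2% without combination replicate 2. Of 45 ribosomal protein genes 17 rose and 0 fell with all libraries, 8 rose without combination replicate 2, 30 without combination replicate 3, and 10, 1 and 2 without DMSO replicate 1, 2 or 3. The list's median was 0.20, 0.11 without combination replicate 2 and 0.09 with the length correction, and by library 0.06, −0.03 and −0.03 with DMSO and 0.12, 0.35 and 0.10 with the combination. Of 40 respiratory chain genes 10 rose and 0 fell, 7 rose without combination replicate 2, 17 without combination replicate 3, 2 without DMSO replicate 3 and 0 without DMSO replicate 2. Their medians by library were 0.07, −0.04 and −0.03 with DMSO and 0.12, 0.38 and 0.09 with the combination. RPL12, a protein of the large subunit, rose by 0.29 ± 0.058 and by 0.22 without combination replicate 2, and 0.13 with the correction. COX7C, a subunit of cytochrome c oxidase, rose by 0.41 ± 0.09 (0.32 without combination replicate 2), and was no longer called without DMSO replicate 2 (adjusted p = 0.0518).

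**Figure D5:**
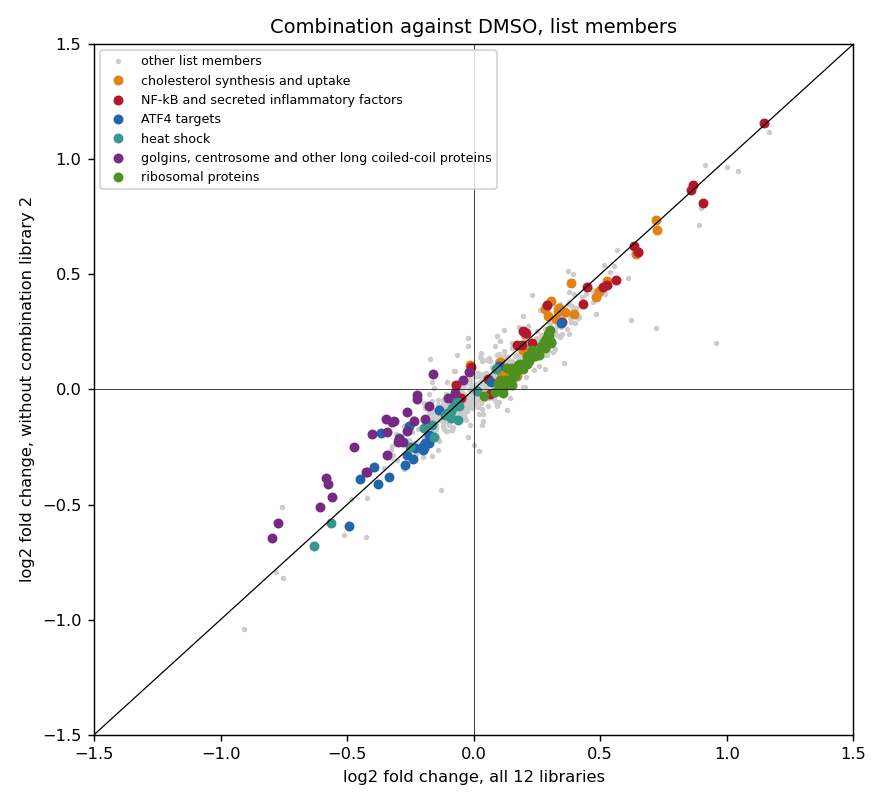
Log2 fold change of the combination against DMSO with all 12 libraries (horizontal axis) and without combination replicate 2 (vertical axis) for tested list members, with 6 lists in colour and the line of equal values. Cholesterol, inflammatory, ATF4 and heat shock genes lie along the line, and most ribosomal protein and long coiled-coil genes lie closer to 0 on the vertical axis than on the horizontal one.

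Polycomb targets are the genes that PRC2 keeps silent. Of 36 tested HOX genes, which set body position, 0 rose and 1 fell in each fit, or 2 with the GC and length correction. Over all genes 6.69% rose and 7.25% fell with all libraries. HOXA6 was at 1.57, 1.13 and 1.08 CPM with DMSO and 0.806, 0.804 and 0.63 with the combination and fell by 0.75 ± 0.21, and was no longer called without DMSO replicate 1 or 2 or combination replicate 3 (adjusted p up to 0.123). Of 46 other developmental regulators that Polycomb is known to bind, 1 rose and 0 fell in each fit: BMP4, a secreted growth factor (chromosome 14, 53949736 to 53958761), at 6.24, 5.87 and 6.35 and 8.15, 7.94 and 7.91 CPM, rose by 0.38 ± 0.082 (adjusted p = 0.0106; 0.38 without combination replicate 2), and was no longer called without DMSO replicate 2 (adjusted p = 0.0532). A further 3 HOX genes and 17 other regulators had too few counts to be tested, so that a small rise from silence there would not have been seen.

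Of 25 p53 targets 4 rose and 0 fell, where 6.69% of all genes were higher and 7.25% lower, and without combination replicate 2, 4 rose and 1 fell. GDF15, a stress cytokine (chromosome 19, 18374731 to 18389176), went from 11.7, 11.7 and 11.1 to 14.9, 17.9 and 16.4 CPM and rose by 0.51 ± 0.085 (adjusted p = 0.00295; 0.44 without combination replicate 2). CCNG1, TP53I3 and SESN1 rose by 0.23, 0.26 and 0.28, the last 2 losing their call without DMSO replicate 2 (adjusted p = 0.0581) and without DMSO replicate 1 or 2 or combination replicate 1 (adjusted p up to 0.0657). Of 26 genes of homologous recombination, Fanconi repair and checkpoints 1 rose and 2 fell in each fit, and 1 rose and 5 fell with the GC and length correction. CHEK2, a checkpoint kinase, rose by 0.34 ± 0.068 and FANCA, a core Fanconi protein, fell by 0.32 ± 0.048 (0.30 and 0.28 without combination replicate 2). The second fall was RAD54L (−0.18) with all libraries and FANCM (−0.27) without combination replicate 2, and the RAD54L call was lost without any DMSO library or combination replicate 3 as well (adjusted p up to 0.128). Of 15 BCL-2 family genes BCL2L1, which encodes the survival factor BCL-XL, fell by 0.22 ± 0.037 (0.24), and 14 were not called, while without combination replicate 2 the pore-forming members BAX (−0.18) and BAK1 (−0.17) fell too. With the correction 3 of this family fell. BAX is also the p53 target that fell there.

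In hypoxia and glycolysis 3 of 26 genes rose and 4 fell, or 1 and 7 without combination replicate 2. With the GC and length correction the counts were 3 and 6 (3 and 9 without that library). The lists of this paragraph are to be read against 6.69% higher and 7.25% lower over all genes. Without combination replicate 2 these shares were 6.2% and 9.11%. The correction gave 1169 higher and 1699 lower of all 15443 tested genes. SLC2A1, the glucose transporter GLUT1 (chromosome 1, 42925375 to 42959176), went from 282, 282 and 271 to 232, 232 and 232 CPM and fell by 0.26 ± 0.032 (adjusted p = 0.000641; 0.27 without combination replicate 2). HK2, a hexokinase, fell by 0.29 and PFKFB4, which tunes glycolysis, rose by 0.32. GPI and PFKP, enzymes of glycolysis, were at −0.16 and −0.16, and ALDOC and ENO2 were called higher only with combination replicate 2 (0.25 and 0.18). Leaving out 1 library ended the call of GPI without DMSO replicate 1 or 2 (adjusted p up to 0.0568), PFKP without DMSO replicate 1, 2 or 3 (adjusted p up to 0.0679), ALDOC without DMSO replicate 2 or 3 or combination replicate 2 (adjusted p up to 0.101) and ENO2 without DMSO replicate 1, 2 or 3 or combination replicate 2 (adjusted p up to 0.0983). The GPI call was also lost with the GC and length correction (−0.10, adjusted p = 0.103) and with upper quartile scaling (adjusted p = 0.0507). Of 18 NRF2 targets and ferritins 3 rose and 1 fell in each fit, and 3 and 3 with the correction without combination replicate 2. The ferritin chains FTH1 and FTL rose by 0.47 and 0.26, calls lost without DMSO replicate 1 or 2 (adjusted p up to 0.071) and without DMSO replicate 2 or 3 (adjusted p up to 0.0719). ME1, counted here as well, was the third rise. SLC7A11, the cystine transporter, fell by 0.39 ± 0.071 (0.33). Of 18 endoplasmic reticulum chaperones 1 rose with all libraries, and 0 rose and 1 fell without combination replicate 2. These were CRELD2 (0.30) and HSPA5 (−0.09), the chaperone BiP. The CRELD2 call was also lost without any 1 of the DMSO libraries (adjusted p up to 0.115). CALR and HSP90B1 were at 0.03 and 0.02, or −0.02 and −0.03 with the GC and length correction, and not called.

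Single genes were ranked only among those called in both fits with mean log2 CPM of at least 1 and no overlap. The largest changes among these were mostly of low counts. Genes at lower levels were left out of this ranking, and estimates over all tested genes ran from −9.19 to 9.17. Most of the 48 genes called at a fold of at least 2, 41 higher and 7 lower, are not named here. PCSK1, a prohormone convertase (chromosome 5, 96390415 to 96434143), was at 2.76, 1.69 and 1.99 CPM with DMSO and 5.3, 4 and 5.13 with the combination and rose by 1.16 ± 0.16 (adjusted p = 0.00124; 1.28 without combination replicate 2). TENM1, a teneurin with a long transcript (chromosome X, 124375903 to 124963817, 12891 nt), went from 2.91, 3.82 and 3.7 to 8, 4.18 and 7.88 CPM, combination replicate 2 standing just above the highest DMSO value. It rose by 0.93 ± 0.21 and by 1.19 without that library, and the call with all libraries was lost without DMSO replicate 1 (adjusted p = 0.0519). MGP, a matrix protein that inhibits calcification, rose by 0.86 ± 0.13 (0.88).

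Among the largest falls by the same ranking, ADM2, a peptide hormone of the adrenomedullin family, fell by 1.00 ± 0.21 (0.89 without combination replicate 2). ABCA1, the exporter of cell cholesterol (chromosome 9, 104781002 to 104928237), fell by 0.73 ± 0.14 (0.65). ABCA1 was at 7.57, 7.82 and 8.52 CPM with DMSO and 5.08, 4.25 and 5.13 with the combination, with no overlap. MUC5B, a mucin with a transcript of 17911 nt, fell by 0.77 ± 0.16 (0.54). FAM196B fell by 0.70 ± 0.17 (0.53), and was no longer called without DMSO replicate 1 or 2 (adjusted p up to 0.0763). SENP3-EIF4A1 and NPIPB4 were at −1.40 and −0.69 (−1.13 and −0.44), the latter lost without DMSO replicate 1, 2 or 3 (adjusted p up to 0.0715). The first is a readthrough transcript that shares its reads with SENP3 and EIF4A1, and the second a member of a multigene family, so both values depend on how reads were divided.

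Across all genes, fewer were called between the combination and each single compound than between it and DMSO. Against GSK343 alone 152 genes were called (0.984%), 100 higher and 52 lower, and against XL413 alone 121 (0.784%), 86 higher and 35 lower. These comparisons use the same combination libraries, so combination replicate 2 enters both, and without it 244 and 245 genes were called. Without combination replicate 1 the counts were 69 and 67, and without replicate 3 they were 378 and 90. The interaction, which asks whether the combined change departs from the sum of the single changes on the log2 scale, was called in 0 genes (0%) by edgeR, with 413 genes at an unadjusted p under 0.05. DESeq2 called it in 2 genes, CA9 (log2 value −1.64) and BAGE5 (−53.4, too extreme to be a usable estimate), for which edgeR gave adjusted p = 0.766 and 0.989. Without combination replicate 2 edgeR called it in 0, with 434 at an unadjusted p under 0.05. With no interaction, a share of about 0.05 of the tested genes would lie under that p, and 413 and 434 are both fewer. With 3 libraries per group small departures can be missed, so these counts do not show that the single changes add up.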

How the data were processed

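RNA of A375 cells was sequenced from oligo-dT selected, dUTP strand-specific libraries, per the labels' protocols. The authors deposited 1 table of RSEM expected counts (estimated reads per gene symbol) for 12 libraries. Bowtie2 2.1.0, RSEM 1.2.15 and hg38 are named per the submitters' processing notes. The gene annotation, strand setting and trimming were not given in the sources used here. Reads shared by similar transcripts are assigned by estimate, which bears on gene copies and readthrough transcripts.

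Expected counts were rounded to whole numbers. Genes were kept by filterByExpr (minimum count 10, total 15; 11032 genes removed), scaled by TMM, and tested with edgeR 4.0.16 (quasi-likelihood, 1 coefficient for each of 4 groups over 12 libraries, 8 residual degrees of freedom, R 4.3.3). P-values were adjusted by Benjamini-Hochberg over all 15443 tested genes, two-sided, and genes under 0.05 were called. Log2 fold changes are printed with their standard errors, and levels are in CPM, as edgeR computes it on TMM-scaled libraries. Alternatives were other scalings and filters, DESeq2 1.42.0, limma-voom (limma 3.58.1), a fit of 6 libraries, a GC and length correction, and each library left out.

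The 30 gene lists and the comparison were chosen with earlier results of these data known, so agreement with a list's usual direction is no independent evidence. Genes named were the 10 largest rises and 10 largest falls called in both fits with mean log2 CPM of at least 1 and no overlap, the compounds' targets, and up to 4 members per list with the smallest p. Other list members were named after their values were seen. Gene coordinates and transcript lengths are from GENCODE 29 on GRCh38, matched by symbol (23872 directly, 725 by older symbols, 1876 unmatched), and promoters from RefSeq. A few list members are counted in the lists but not reported here by name.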

Additional observations from a re-analysis of the deposited data

How the results depend on the processing

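Among 108 genes named by the rule, no called log2 fold change changed sign under any alternative run, while genes near 0 that were not called did, such as CALR (0.03, and −0.02 without combination replicate 2). The balance of calls did turn: 1033 higher and 1119 lower became 1367 and 778 with upper quartile scaling and 1159 and 1001 with a minimum of 5 CPM in 3 libraries. Among the same 108, DESeq2 and limma-voom each ended 1 call, and RLE size factors ended 0. Leaving out DMSO replicate 2 ended 29, DMSO replicate 1 or 3 ended 16 and 17, combination replicate 1, 2 or 3 ended 8, 0 and 6, and the fit of the 6 libraries of the 2 groups ended 28. That fit has fewer samples and called 671 genes, 332 higher and 339 lower. The 0 for combination replicate 2 was set by the naming rule, which took most of these genes from those called with and without it. Over all genes, 418 calls were made only with that library. Leaving out 1 of the 6 libraries gave 834 to 2612 calls, 372 to 1171 higher and 462 to 1441 lower. At a fold of at least 2 the counts were 48, 41 and 7. The GC and length correction gave 1699 lower, and 1865 on the 11 libraries without combination replicate 2, an alternative chosen after seeing the data. Against GSK343 alone DESeq2 called 582 genes and leaving out 1 library gave 69 to 378, and against XL413 alone these were 294 and 67 to 245. DESeq2 called 2 genes for the interaction. The causes of these moves were not tested. Combination and DMSO libraries of the same number did not deviate together (r = −0.15, −0.01 and −0.10). The labels do not say whether equal numbers share a culture or batch, and so few correlations cannot decide it. A fit with a replicate block called 2065 genes, 940 higher and 1125 lower. Depth limits the genes of low counts: 11032 were not tested.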
